A study of Mus musculus with 5 samples.

Results

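RNA levels of 43 mouse imprinted genes were followed across 5 RNA-seq libraries of E14 embryonic stem cells. The genes were taken as a named list of well-studied imprinted genes from 17 clusters or single loci. Of the 22267 genes for which a symbol was found, 42 of the 43 listed genes were matched, through 81 RefSeq transcripts. H19 was not matched to a transcript and has no value here. In mouse, 21 of the 43 are known to be transcribed from the maternal allele and 21 from the paternal allele, and Gnas makes transcripts of both kinds. These alleles are background knowledge: the values are the sum over both alleles, so nothing below says which allele was active or whether an imprint was kept.

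An imprinted gene is transcribed mainly from the copy inherited from 1 parent. The choice is written as DNA methylation in the egg or sperm at a control region of the cluster, and after fertilisation it is held by proteins such as the zinc finger protein ZFP57 and its partner TRIM28, which keep the methylated copy methylated. Many imprinted genes regulate growth of the embryo and placenta, often with growth promoters read from the paternal copy and growth restrainers from the maternal copy. Some imprints exist in certain tissues only, such as that of Ube3a in neurons and those of Tspan32, Cd81 and Tssc4 in placenta, and mouse embryonic stem cells are known to lose or gain imprints in culture.

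The libraries, 1 per group, came from E14 cells with the strain given as C57BL/6. Normal cells and cells labelled as overexpressing hexokinase 2 and pyruvate kinase M2 (called Hk2/Pkm2-labelled below) were each grown with leukemia inhibitory factor (LIF), the cytokine that keeps mouse embryonic stem cells undifferentiated, or had LIF withdrawn for 24 hours and then returned. The fifth library came from Hk2/Pkm2-labelled cells grown for 40 days without LIF, and a normal counterpart for that time is not analysed here. The labels do not say whether the labelled cells are 1 clone or a pool, nor what drives the transgenes. All 8 pluripotency genes examined, among them Pou5f1 and Sox2, stood above 1 FPKM in each library. Of 10 fibroblast or feeder markers, the collagens Col1a1, Col1a2 and Col3a1 stayed at or below 0.195 FPKM in each. Thy1, Twist1, Fn1 and Lgals1 averaged at least 1 FPKM, with Fn1 between 35.9 and 58.7 FPKM and Lgals1 between 27.3 and 77.8 FPKM. FPKM counts fragments relative to transcript length and to the fragments mapped in a library, and the depth behind it was estimated at 37000000 to 40000000 fragments per library. At that depth 3 fragments on a 2 kb transcript correspond to 0.0375 to 0.0405 FPKM.

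Of the 43 genes, 25 had a mean of at least 1 FPKM over the 5 libraries, 14 of them maternally and 10 paternally expressed plus Gnas, from 13 of the 17 loci. Counts of differences below refer to these 25. Another 16 had a lower mean, and Snrpn was kept out of the counts because its value at 40 days is a hyphen, which the sources used here do not explain. Each library was compared with another by the log2 ratio of FPKM + 1, and a ratio of at least 2-fold was counted without a test, since no group has a replicate. The shares of all 9590 genes with a mean of at least 1 FPKM that met the same rule are given beside each count.

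Promoter windows of Grb10, Plagl1, Mest and Meg3 are shown first, because imprint control regions often lie at a promoter. These are a selection from the genes whose levels differed between the cell types or along the cultures. Plagl1 has a mean under 1 FPKM and is in none of the counts. RefSeq promoter windows (assembly GRCm38.p6, the 250 bases before the transcript start) were found for 34 of the 43 genes. The hexamer TGCCGC, which ZFP57 binds when its CpG is methylated, was searched on both strands, and on the opposite strand it reads GCGGCA. It occurred in 8 of 50 windows of the imprinted genes (16%) against 8.68% of 32851 windows of all genes. Among the 8, overlapping Mest windows that hold the same hexamers are counted separately. The hexamer holds a CpG, and the median number of CpG was 9 in windows of the imprinted genes against 6 over all. The shares were not adjusted for this, nor was the hexamer tested for an excess. By gene it occurred in 7 of 34, namely Copg2, Mcts2, Meg3, Mest, Nap1l5, Plagl1 and Zim1, against 9.84% of 27025 genes. Igf2, Igf2r, Peg3, Slc22a18, Ube3a, Zrsr1, Ddc, Rian, Mirg, Tspan32 and Gnas were also at least 2-fold different in a comparison. Their windows all lack the hexamer, so the windows shown do not stand for the genes that differed. A match is a description of these letters and not a bound site. H19, Cdkn1c, Kcnq1, Rtl1, Peg10, Sgce, Klf14, Impact and Dcn were not matched to a window.

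The windows below run 5′ to 3′ in the direction of the transcript, with the hexamer in capitals. They belong to the maternally expressed Grb10 (chr11:12037421-12037670, minus strand), the paternally expressed Plagl1 (chr10:13090582-13090831, plus strand) and Mest (chr6:30737800-30738049, plus strand), and the maternally expressed Meg3 (chr12:109540746-109540995, plus strand).
Grb10: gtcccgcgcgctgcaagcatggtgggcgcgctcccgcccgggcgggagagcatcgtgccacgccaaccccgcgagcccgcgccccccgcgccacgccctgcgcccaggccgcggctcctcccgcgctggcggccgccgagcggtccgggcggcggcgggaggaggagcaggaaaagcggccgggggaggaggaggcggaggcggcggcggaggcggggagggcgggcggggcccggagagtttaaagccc
Plagl1: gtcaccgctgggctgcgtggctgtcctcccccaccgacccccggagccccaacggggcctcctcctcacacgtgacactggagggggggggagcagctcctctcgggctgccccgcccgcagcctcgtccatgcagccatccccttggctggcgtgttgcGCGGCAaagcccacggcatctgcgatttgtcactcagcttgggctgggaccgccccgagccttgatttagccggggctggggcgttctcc
Mest: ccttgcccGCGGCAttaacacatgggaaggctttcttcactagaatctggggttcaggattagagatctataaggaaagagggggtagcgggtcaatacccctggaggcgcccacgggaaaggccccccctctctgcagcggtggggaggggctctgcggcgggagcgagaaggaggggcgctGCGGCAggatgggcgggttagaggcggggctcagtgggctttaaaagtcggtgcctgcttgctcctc
Meg3: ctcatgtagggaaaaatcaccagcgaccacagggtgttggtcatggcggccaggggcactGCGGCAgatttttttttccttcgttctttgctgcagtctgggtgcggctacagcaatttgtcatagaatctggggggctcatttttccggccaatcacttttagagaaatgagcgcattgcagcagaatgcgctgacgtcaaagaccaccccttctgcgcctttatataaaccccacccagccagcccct

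The Grb10 window has 40 CpG dinucleotides, the highest number among the windows of these genes, whose median is 9 against 6 over all genes, and it lacks the hexamer. The Plagl1 window has 19 CpG and 1 hexamer, which begins 90 bases before the start. The Mest window has 14 CpG and 2 hexamers, 242 and 67 bases before the start, and the Meg3 window has 10 CpG and 1 hexamer at 190 bases. Mest and Meg3 also have a RefSeq start whose window lacks the hexamer. Grb10 has another RefSeq start, whose window has 8 CpG and also lacks the hexamer.

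In culture with LIF the most abundant of the genes in normal cells were Cd81, a tetraspanin, at 198 FPKM, and Gnas, the stimulatory G protein alpha subunit, at 131 FPKM. Mcts2, Mest, Phlda2, Peg10, Meg3 and Rian followed between 48.0 and 61.8 FPKM. Igf2, the fetal growth factor, stood at only 1.602 FPKM.

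**Figure D1:**
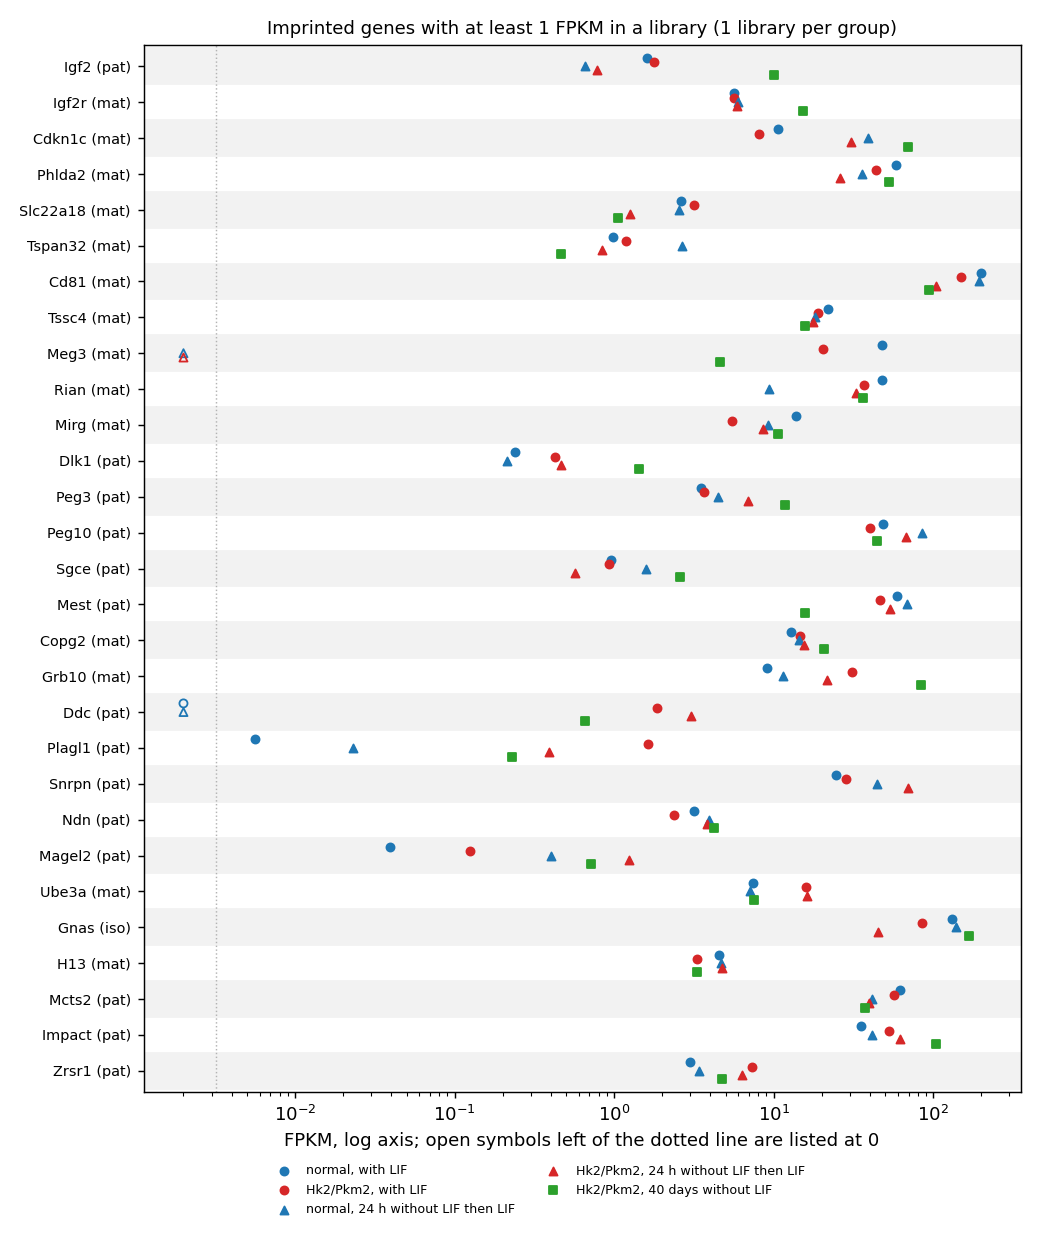
FPKM on a log axis of the 29 imprinted genes that reach 1 FPKM in at least 1 library, in cluster order, with the expressed allele in brackets (mat, pat, or iso for Gnas). Each symbol is 1 library, and open symbols left of the dotted line are values listed at 0. The red symbols of Grb10, Ube3a, Impact and Zrsr1 lie right of the blue ones in both cultures, and the green squares of Igf2, Igf2r, Cdkn1c and Grb10 lie right of all other symbols of the gene.

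The first question was how the Hk2/Pkm2-labelled cells differ from normal E14 cells. With LIF, 6 of the 25 genes were at least 2-fold different, against 9.43% of all genes. The 4 higher ones were Grb10, Ddc, Ube3a and Zrsr1 (4.11% of all genes were higher) and the 2 lower ones Meg3 and Mirg (5.32%). After the withdrawal 5 of 25 were at least 2-fold different, against 9.37% of all genes. Rian, Ddc and Ube3a were the 3 higher ones (4.19% of all genes) and Tspan32 and Gnas the 2 lower ones (5.18%). The pairs of libraries share none, and Ddc and Ube3a were at least 2-fold higher in both, where 0.709% of all genes were. None was at least 2-fold lower in both, where 1.13% of all genes were. Ddc was listed at 0 in both normal libraries and reached 1 FPKM on average through the labelled ones. Ube3a reached 2-fold only with a transcript listed at 0 in both normal libraries. Among the 23 genes above 0 in every library, 4 were at least 2-fold different with LIF and 4 after withdrawal. Ube3a was the one higher in both. The shares of all genes were not recomputed for that set. The median log2 ratio of the 25 genes was -0.12 with LIF and -0.02 after withdrawal, beside -0.04 and -0.02 over all genes.

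Grb10 (chromosome 11, 11830511 to 11938686, mm9, minus strand) encodes an adaptor that binds the insulin and IGF1 receptors and restrains growth. It stood at 9.07 FPKM in normal E14 cells and 31.1 FPKM in labelled cells in LIF, and at 11.4 and 21.6 FPKM after withdrawal. The log2 ratios were 1.67 and 0.87, and both labelled libraries lay above both normal ones. Its neighbour Ddc (chromosome 11, 11714104 to 11798047), which encodes the decarboxylase that makes dopamine and serotonin, was listed at 0 in both normal libraries. It stood at 1.85 and 3.03 FPKM in the labelled ones. A value listed at 0 in this table can be a failed estimate, so no fold is given for Ddc, and its place in the counts rests on those zeros. At 40 days Ddc stood at 0.653 FPKM. Cobl and Fignl1, the expressed genes outside the list within 1 Mb of Grb10, had log2 ratios of -0.23 and 0.28 with LIF and of 0.22 and 0.77 after withdrawal, all under 2-fold. The median over 709 genes of chromosome 11 was -0.04 and 0.00.

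Zrsr1 also lies on chromosome 11 (22873215 to 22876498, plus strand), inside an intron of Commd1, and encodes a relative of the splicing factor U2AF. It stood at 3.002 FPKM in normal and 7.33 FPKM in labelled cells in LIF, and at 3.39 and 6.36 FPKM after withdrawal, with log2 ratios of 1.06 and 0.75. Both labelled libraries were higher, the library at 40 days had 4.74 FPKM, and the host Commd1 had ratios of -0.22 and -0.18 between the cell types. The paralog Zrsr2 stood at 9.93 and 11.4 FPKM in normal and labelled cells in LIF and at 3.80 and 7.48 FPKM after withdrawal. Its ratios were 0.18 and 0.82. Zrsr1 and Commd1 share 203 exon bases on opposite strands in the mm9 annotation. The kit named in the labels does not mark strand, so reads from those bases cannot be told apart.

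Ube3a, the ubiquitin ligase whose maternal copy is lost in human Angelman syndrome, stood at 7.46 and 15.9 FPKM in LIF and at 7.10 and 16.1 FPKM after withdrawal, in normal and labelled cells respectively. The log2 ratios were 1.001 and 1.07. Part of each ratio lies in the transcript NM_011668, which was listed at 0 in both normal libraries and at 40 days and had 3.41 and 5.82 FPKM in the labelled ones. With the most abundant transcript alone the ratios were 0.68 and 0.47, which are under 2-fold. At 40 days Ube3a stood at 7.56 FPKM, the level of the normal libraries.

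Impact, a regulator of the GCN2 kinase in the control of translation, stood at 35.3 and 52.7 FPKM in LIF and at 41.5 and 62.0 FPKM after withdrawal. The log2 ratio was 0.57 both times, and both labelled libraries lay above both normal ones. The 3 expressed neighbours within 1 Mb had a median ratio of -0.11 with LIF and -0.08 after withdrawal. The nearest of them had ratios of -0.04 and 0.89, the second above that of Impact. Plagl1, a paternally expressed zinc finger transcription factor, stood at 0.0056 and 0.0232 FPKM in the normal libraries, under the level of 3 fragments on 2 kb. The labelled libraries had 1.62 FPKM in LIF, 0.392 FPKM after withdrawal and 0.229 FPKM at 40 days, so each was above each normal library. Its mean was under 1 FPKM, and it is in none of the counts.

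The growth restrainers of the Kcnq1 cluster on chromosome 7 were lower in labelled cells by less than 2-fold. Cdkn1c, which encodes the cyclin-dependent kinase inhibitor p57, stood at 10.6 and 8.11 FPKM in LIF and at 39.0 and 30.7 FPKM after withdrawal. Phlda2, which limits growth of the placenta, stood at 58.7 and 43.5 FPKM and then at 35.8 and 26.2 FPKM. The log2 ratios in the 2 cultures were -0.35 and -0.34 for Cdkn1c and -0.42 and -0.44 for Phlda2. Cd81 had 198 and 150 FPKM in LIF and 194 and 103 FPKM after withdrawal, and its ratios were -0.40 and -0.91. All of these were lower in both labelled libraries.

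The maternally expressed noncoding RNAs of the Dlk1-Meg3 cluster on chromosome 12 did not keep 1 direction. Mirg stood at 13.8 FPKM in normal and 5.50 FPKM in labelled cells in LIF and at 9.16 and 8.57 FPKM after withdrawal, and at 10.6 FPKM at 40 days. Rian, a host of small nucleolar RNAs, stood at 48.0 and 36.9 FPKM in LIF but at 9.28 and 33.0 FPKM after withdrawal, so its log2 ratio was -0.37 in 1 culture and 1.72 in the other. At 40 days it stood at 36.4 FPKM, close to the labelled cells in both other cultures. Tspan32, a tetraspanin of the Kcnq1 cluster, stood at 0.988 and 1.18 FPKM in LIF and at 2.68 and 0.839 FPKM after withdrawal, with ratios of 0.13 and -1.002, and at 0.462 FPKM at 40 days.

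Gnas was lower in the labelled library in both cultures, with 131 and 84.6 FPKM in LIF and 139 and 45.01 FPKM after withdrawal, and log2 ratios of -0.63 and -1.61. The second ratio rests on the noncoding transcript NR_003258, which had between 35.9 and 80.8 FPKM in 4 libraries and was listed at 0 in labelled cells after withdrawal. Without this transcript, left out after its values were seen, the ratios were -0.94 with LIF and -0.60 after withdrawal. Another Gnas transcript had 16.8 FPKM in normal and 9.85 FPKM in labelled cells with LIF and was listed at 0 in the other libraries. At 40 days Gnas stood at 168 FPKM. Gnas shares 988 exon bases with the antisense Nespas on the opposite strand, and these were not separated.

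**Figure D2:**
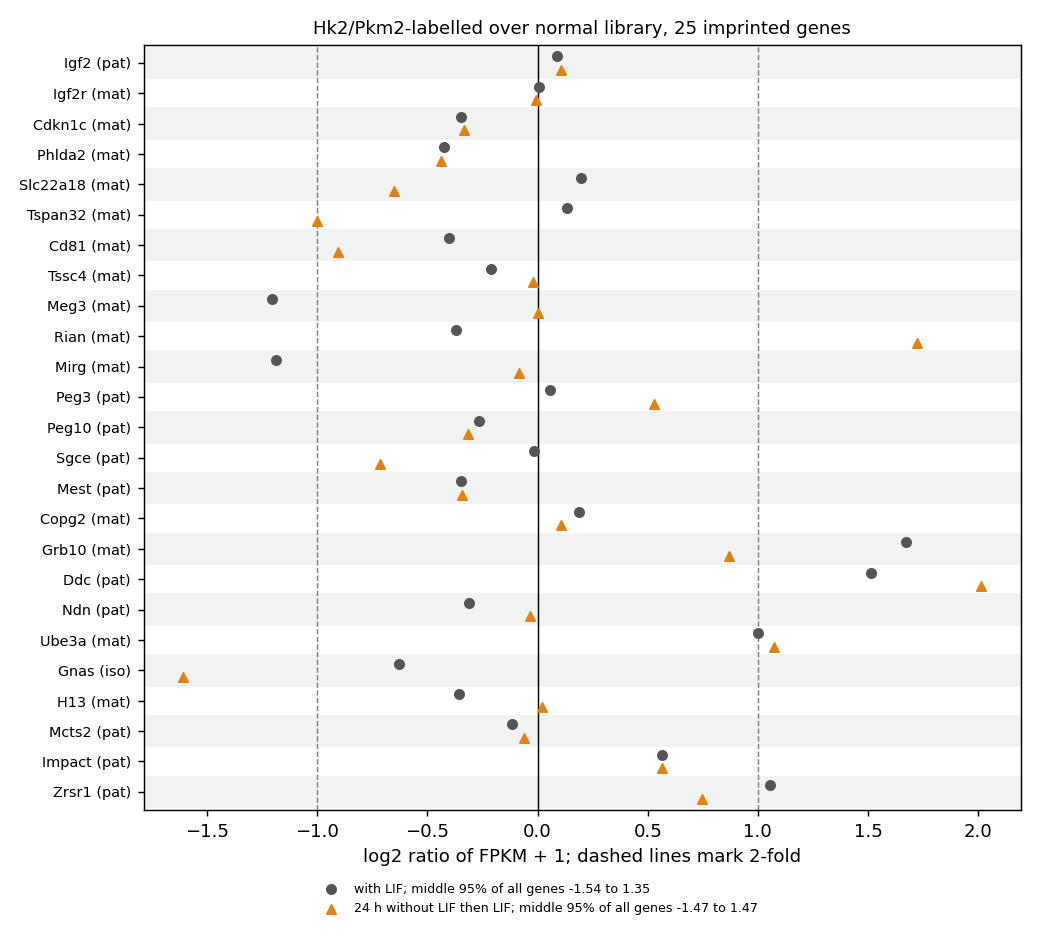
Log2 ratio of FPKM + 1 of the Hk2/Pkm2-labelled over the normal library for 25 imprinted genes, with LIF (circles) and after 24 hours without LIF and its return (triangles). Dashed lines mark 2-fold. Impact, Mest, Phlda2, Cdkn1c and Ube3a have nearly the same ratio in both cultures, while Rian and Tspan32 do not. Meg3 lies at 0 after withdrawal because both libraries list it at 0.

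The 4 libraries that cross cell type and culture allow 1 test, limma with both factors, which leaves 1 residual degree of freedom made of the interaction and library noise. No gene of 9590 passed a Benjamini-Hochberg adjusted p of 0.05 for cell type, and 918 (9.57%) had an unadjusted p under 0.05. Of the 25 imprinted genes, 10 had an unadjusted p under 0.05 and 7 had one under median ratio scaling and under quantile normalization. Ube3a was higher by 1.04 ± 0.12 (SE, 4 libraries) on the log2 scale, with an adjusted limma p of 0.512. Impact was higher by 0.57 ± 0.072, at the same adjusted limma p of 0.512. Grb10, at 1.27 ± 0.27, had an adjusted limma p of 0.516. Zrsr1 was higher too, and Phlda2, Mest, Peg10, Cd81 and Cdkn1c were lower. The tenth, Ddc, was listed at 0 in both normal libraries and reached the limit of 1 FPKM through the labelled ones, so nothing is read from its p. These p-values rest on how far the cell type ratio differs between the cultures and on the spread that limma borrows from all genes. They do not measure a spread between replicates, and the labels do not state the separate origin of the 4 libraries.

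The next comparison, made with the same 4 libraries, asks how levels stood after 24 hours without LIF and its return in each cell type. Cdkn1c was at least 2-fold higher in both. Meg3 was counted as lower in both only through its zeros after withdrawal, and without genes listed at 0 the counts were 2 in normal and 1 in labelled cells. Rian was at least 2-fold lower in normal cells and stood at 36.9 and 33.0 FPKM before and after in labelled cells. With Meg3 these are 3 of 25 genes in normal and 2 of 25 in labelled cells, against 10.1% and 11.9% of all genes. Higher values made up 4.62% and 5.79% of all genes and lower ones 5.51% and 6.07%, and 1.3% were higher and 2.03% lower in both cell types. The median log2 ratio of the 25 genes was 0.07 in normal and -0.09 in labelled cells, beside -0.01 and 0.00 over all genes.

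For Cdkn1c (chromosome 7, 150644255 to 150646955, minus strand) the values given above amount to log2 ratios of 1.79 in normal and 1.80 in labelled cells. The limma difference for culture was 1.79 ± 0.092 (SE, 4 libraries), with an unadjusted p of 0.000936, the smallest among the 25 genes. The adjusted limma p was 0.324, the same as for Meg3, Peg10 and Phlda2. The 4 expressed neighbours within 1 Mb had a median ratio of 0.42 in normal and 0.18 in labelled cells, and none was 2-fold different. In the same cluster Phlda2 was lower after withdrawal, with ratios of -0.70 and -0.71, so these growth restrainers stood on opposite sides.

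Meg3 (chromosome 12, 110779211 to 110809936, plus strand), a long noncoding RNA expressed from the maternal copy, stood at 48.1 FPKM in normal and 20.3 FPKM in labelled cells with LIF. After withdrawal both libraries listed it at 0, and it stood at 4.57 FPKM at 40 days. The values with LIF come from the transcript NR_027652 and the value at 40 days from NR_003633, each listed at 0 elsewhere. A level assigned to separate transcripts in this way, with zeros that can be failed estimates, does not give a fold. Rian and Mirg lie downstream and are thought to belong to the same long transcription unit. Both were detected in the libraries where Meg3 was listed at 0, but not at an unchanged level. From LIF to withdrawal, Rian went from 48.0 to 9.28 FPKM in normal and from 36.9 to 33.0 FPKM in labelled cells. Mirg went from 13.8 to 9.16 FPKM in normal and from 5.50 to 8.57 FPKM in labelled cells.

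Peg10, a protein derived from a retrotransposon and needed for placenta formation, stood at 48.4 and 84.5 FPKM before and after withdrawal in normal cells and at 40.1 and 67.8 FPKM in labelled cells. The log2 ratios were 0.79 and 0.74, and at 40 days Peg10 was back at 44.6 FPKM. Mcts2, a retrogene inside H13, went the other way, with 61.8 and 41.6 FPKM in normal E14 cells and 56.9 and 39.8 FPKM in labelled cells, and stood at 37.5 FPKM at 40 days. Igf2 stood at 1.602 and 0.658 FPKM in normal and at 1.77 and 0.786 FPKM in labelled cells. Snrpn, which encodes the spliceosomal protein SmN, stood at 24.5 and 44.4 FPKM in normal and at 28.5 and 69.8 FPKM in labelled cells, so both libraries after withdrawal were above both with LIF.

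Magel2, a MAGE family gene of the Snrpn cluster, had a mean under 1 FPKM, with 0.0393 and 0.404 FPKM in normal E14 cells and 0.125 and 1.24 FPKM in labelled cells, before and after withdrawal, and 0.717 FPKM at 40 days. Ndn, its neighbour and relative, stood at 3.17 and 3.95 FPKM in normal cells, at 2.36 and 3.83 FPKM in labelled cells and at 4.20 FPKM at 40 days, so its values lay in a narrow range. For culture limma again passed no gene of 9590 at an adjusted p of 0.05, and 1154 (12%) had an unadjusted p under 0.05. Of the 25 imprinted genes 6 did, namely Cdkn1c, Peg10, Phlda2, Mcts2, Igf2 and Meg3, whose value rests on the zeros after withdrawal.

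**Figure D3:**
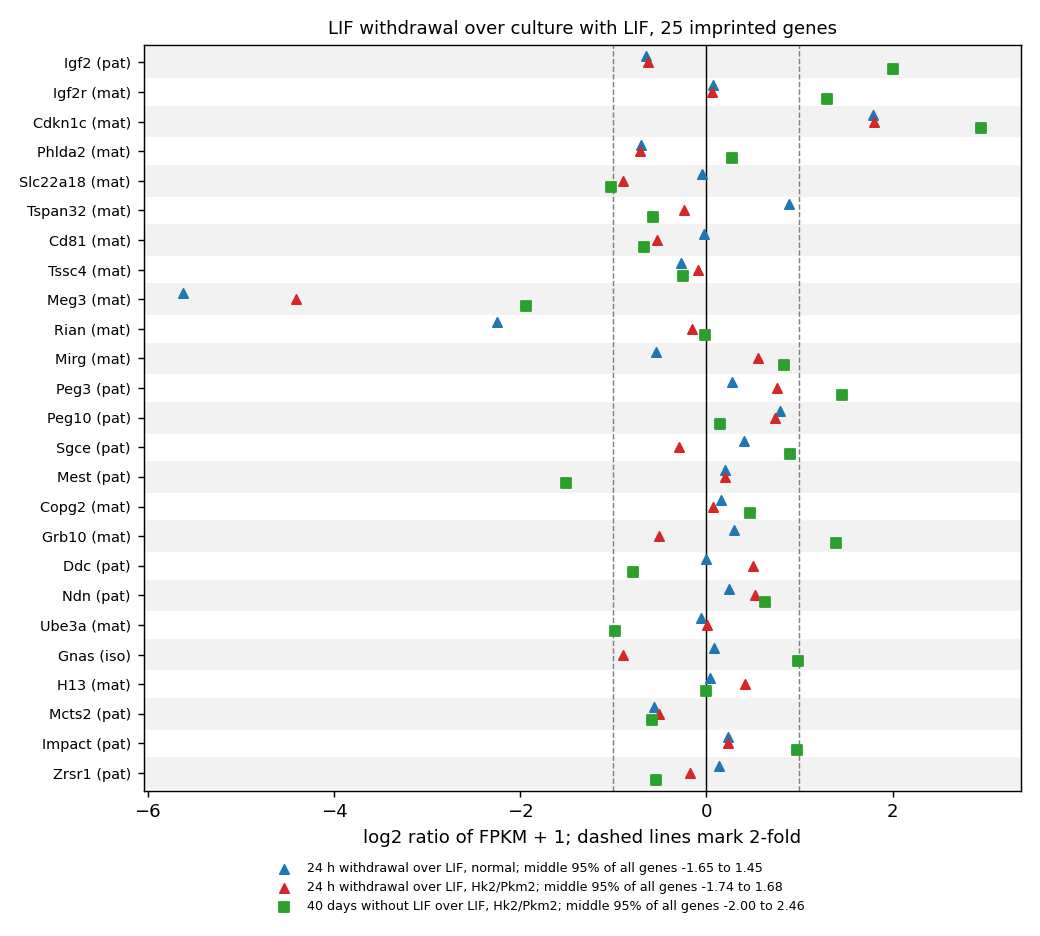
Log2 ratio of FPKM + 1 over the culture with LIF for 25 imprinted genes, after 24 hours without LIF and its return in normal and in Hk2/Pkm2-labelled cells (triangles) and after 40 days without LIF in labelled cells (squares). Dashed lines mark 2-fold, and the labelled ratios share 1 library with LIF. Cdkn1c lies at 1.79 and 1.80 after 24 hours and at 2.95 after 40 days, and Igf2 lies at -0.65 and -0.63 and then at 2.002.

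The last comparison is that of Hk2/Pkm2-labelled cells after 40 days without LIF. Against the same cells with LIF, 8 of 25 genes were at least 2-fold different, against 22.3% of all genes. Igf2, Igf2r, Cdkn1c, Peg3 and Grb10 were higher and Slc22a18, Meg3 and Mest were lower, 5 and 3 genes against 14% and 8.31% of all genes. Against labelled cells after withdrawal, 9 of 25 were at least 2-fold different, against 17.8% of all genes. Igf2, Igf2r, Cdkn1c, Meg3, Sgce, Grb10 and Gnas were the 7 higher ones (12.1% of all genes) and Mest and Ddc the 2 lower ones (5.78%). Of the 7, Gnas was at 0.94 without NR_003258 or with its most abundant transcript alone, Cdkn1c at 0.98 under median ratio scaling and Sgce at 0.90 under quantile normalization, each short of 2-fold. Meg3 was counted over a value listed at 0. The comparisons share the library at 40 days, so each is not a check of the other. The median of the 25 genes was 0.15 and 0.14, beside 0.08 and 0.07 over all genes. Scaling by median ratios or quantiles moved the median of all genes in these comparisons by -0.17 and -0.11 against LIF and by -0.15 and -0.12 against withdrawal.

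The growth factor and the receptor that clears it were both higher. Igf2 (chromosome 7, 149836673 to 149852721, minus strand) stood at 10.1 FPKM at 40 days, where the other libraries lay between 0.658 and 1.77 FPKM. Igf2r (chromosome 17, 12875272 to 12962530, minus strand), which carries IGF2 to lysosomes, stood at 5.62 and 5.64 FPKM in LIF in normal and labelled cells, at 5.97 and 5.92 FPKM after withdrawal and at 15.3 FPKM at 40 days. The log2 ratios against LIF were 2.002 and 1.30. Airn, the paternal noncoding RNA that runs antisense through Igf2r and silences it on that copy, was listed at 0 or stood at up to 0.0195 FPKM in those 4 libraries and at 0.211 FPKM at 40 days.

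Cdkn1c reached 69.2 FPKM and Grb10 reached 83.4 FPKM at 40 days, the highest value of each gene over the 5 libraries. Their log2 ratios against LIF were 2.95 and 1.40. Peg3, a zinc finger protein, stood at 3.49 and 3.66 FPKM in LIF, at 4.45 and 6.87 FPKM after withdrawal and at 11.8 FPKM at 40 days. Impact stood at 105 FPKM, also its highest value, and Phlda2 at 52.8 FPKM. Dlk1, a membrane protein of the Notch ligand type, stood at 0.238 and 0.425 FPKM in LIF, at 0.212 and 0.467 FPKM after withdrawal and at 1.44 FPKM at 40 days.

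Mest (chromosome 6, 30673547 to 30698457, plus strand), which encodes a protein of the hydrolase fold, stood out in the other direction. It had 59.5 and 46.5 FPKM in LIF in normal and labelled cells, 68.4 and 53.6 FPKM after withdrawal and 15.7 FPKM at 40 days. The log2 ratio against LIF was -1.51, and the library at 40 days lay below the other 4. Copg2, a coatomer subunit, overlaps the end of Mest on the opposite strand over 904 of its 4477 exon bases. Reads from those bases cannot be told apart by strand, so the levels of Mest and Copg2 are not fully separate. Copg2 stood at 12.8 and 14.7 FPKM in LIF, at 14.3 and 15.5 FPKM after withdrawal and at 20.8 FPKM at 40 days. The 9 expressed neighbours of Mest within 1 Mb had a median ratio of 1.06, and 5 of them were at least 2-fold higher. Slc22a18, a transporter of the Kcnq1 cluster, stood at 2.64 and 3.17 FPKM in LIF, at 2.53 and 1.25 FPKM after withdrawal and at 1.06 FPKM at 40 days. Cd81 stood at 93.8 FPKM at 40 days, its lowest value.

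Markers of endoderm were high in the same library. Of 17 genes of primitive and visceral endoderm, 12 had a mean of at least 1 FPKM. Among these 12, 10 were at least 2-fold higher at 40 days than with LIF, against 14% of all genes. Gata4, for example, went from 1.19 to 25.6 FPKM. Cubn, Gata6 and Amn did not exceed 0.456 FPKM in any other library, and Dab2 ranged there from 0.213 to 1.09 FPKM. These genes reached the limit through the library at 40 days, so their place in the count was set by the filter. The summed level of the 17 genes was 609 FPKM in LIF, 277 FPKM after withdrawal and 820 FPKM at 40 days in labelled cells, and 1015 and 705 FPKM in normal cells, where Apoe made up most of it. Afp, Sparc and Sox17 were listed at 0 at 40 days. Of 8 pluripotency genes 5 were at least 2-fold lower at 40 days. The part of these cells in the values of the imprinted genes was not tested, and in bulk RNA fewer cells of a type cannot be told apart from less RNA per cell.

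The maternally and the paternally expressed genes are described by their medians, which were not tested against each other. Against LIF, the median log2 ratio at 40 days was -0.01 for the 14 maternally and 0.39 for the 10 paternally expressed genes. With 24 hours of withdrawal it was -0.03 and 0.21 in normal cells and -0.12 and 0.22 in labelled cells. At 40 days against withdrawal the order was the reverse, with 0.21 for the maternally and 0.01 for the paternally expressed genes. Between cell types it was -0.28 and 0.02 with LIF and -0.02 and 0.04 after withdrawal. Among genes above 0 in every library, which leaves out Ddc, the paternal medians between cell types were -0.015 with LIF and -0.035 after withdrawal. With LIF the paternal median was -0.12 among genes with a mean of at least 5 FPKM. The paternal medians of the comparisons against LIF stayed above 0 under each setting tried. That of 40 days against withdrawal changed sign, to -0.14 under median ratio scaling and -0.12 under quantile normalization. The maternal medians against LIF also changed sign, that of labelled cells after withdrawal reaching 0.01 with no filter on low values and that at 40 days reaching 0.27 among genes with a mean of at least 5 FPKM. Members of 1 cluster share a control region and are not independent of each other.

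The 13 genes under 1 FPKM in every library were Airn, Kcnq1, Kcnq1ot1, Rtl1, Zim1, Usp29, Asb4, Ppp1r9a, Klf14, Peg12, Nnat, Nap1l5 and Dcn. Ppp1r9a, a neuronal actin-binding protein, had the highest value of these in 1 library, 0.982 FPKM in normal cells with LIF. Kcnq1, a potassium channel gene, was listed at 0 in every library, and Kcnq1ot1, the noncoding RNA that silences its cluster on the paternal copy, stayed at or below 0.0744 FPKM. The remaining genes above the limit are Tssc4, H13 and Sgce. Tssc4 stood at 22.04 and 18.9 FPKM in LIF, at 18.0 and 17.7 FPKM after withdrawal and at 15.7 FPKM at 40 days. H13, a signal peptide peptidase, stood at 4.54 and 3.32 FPKM, then at 4.68 and 4.76 FPKM, and at 3.32 FPKM at 40 days, so neither gene was 2-fold different in any comparison. Sgce, a sarcoglycan, stood at 0.95 and 0.930 FPKM in LIF, at 1.58 and 0.570 FPKM after withdrawal and at 2.59 FPKM at 40 days.

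A list of 29 genes named imprint maintenance was examined, of which 25 had a mean of at least 1 FPKM. It also holds genes with other main roles, such as Tet3 and Rlim, so its counts do not describe imprint maintenance alone. Zfp57 was lower at 40 days, with 224 and 220 FPKM in LIF, 161 and 153 FPKM after withdrawal and 41.3 FPKM at 40 days, a log2 ratio of -2.38 against LIF. Trim28, its corepressor, stood between 785 and 862 FPKM in the other libraries and at 410 FPKM at 40 days. Dnmt1, the methyltransferase that copies methylation at replication, varied little, between 48.7 and 62.5 FPKM. Against LIF, 6 of 25 were at least 2-fold lower at 40 days (Zfp57, Setdb1, Cbx5, Dnmt3a, Eed and Hdac1) and 2 were higher (Dnmt3b and Rlim), beside the 8.31% and 14% of all genes. Dnmt3a was listed at 0 at 40 days, so its place in that count may be a failed estimate.

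Dppa3, which protects imprints from demethylation in the early embryo, was lower in both labelled libraries. It stood at 6.15 and 4.81 FPKM in normal E14 cells and at 1.49 and 1.07 FPKM in labelled cells, with log2 ratios of -1.52 with LIF and -1.49 after withdrawal. Mbd3, a subunit of the NuRD complex, was higher in both labelled libraries, at 64.6 and 83.3 FPKM against 24.9 and 29.6 FPKM. The de novo methyltransferase Dnmt3b was lower with LIF, at 35.8 FPKM in normal and 11.2 FPKM in labelled cells, and higher after withdrawal, at 31.7 and 144 FPKM. At 40 days it stood at 114 FPKM.

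**Figure D4:**
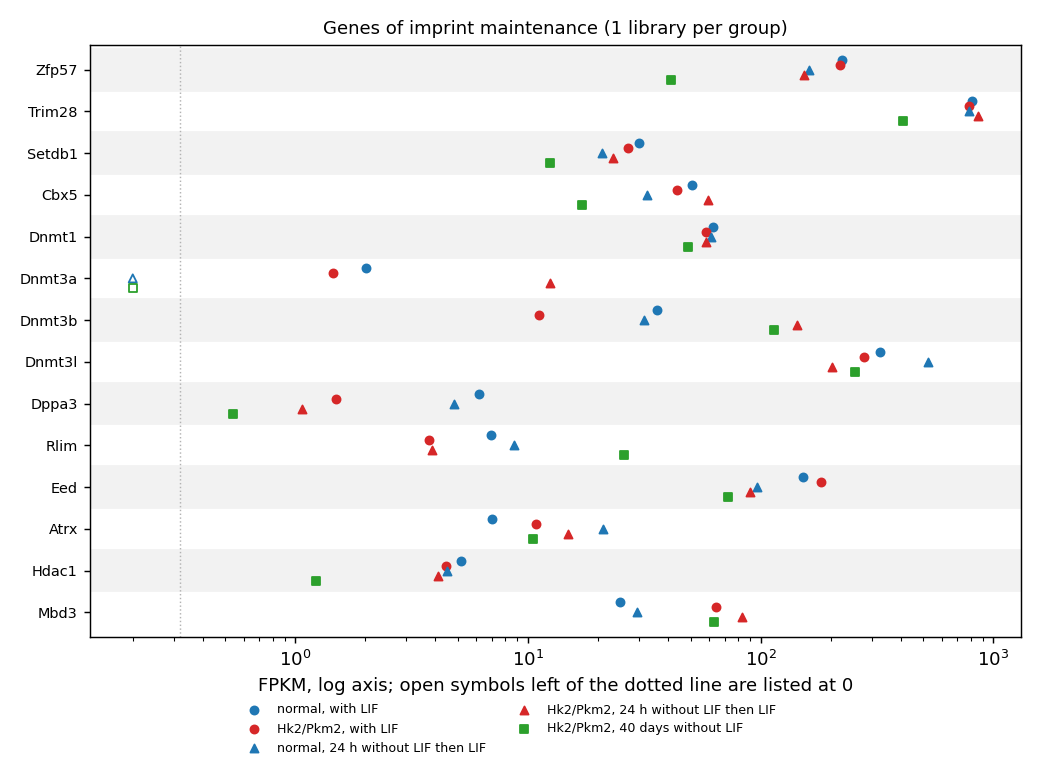
FPKM on a log axis of 14 genes of the imprint maintenance list, those at least 2-fold different in a comparison together with Dnmt1. Each symbol is 1 library, and open symbols left of the dotted line are values listed at 0. Zfp57 and Trim28 are lowest at 40 days (41.3 and 410 FPKM), while Dnmt1 has its 5 symbols close together.

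Of 44 further imprinted genes outside the list, 16 had a mean of at least 1 FPKM. Slc38a4, a paternally expressed amino acid transporter, stood at 4.25 and 11.3 FPKM in normal and labelled cells with LIF, at 5.52 and 14.5 FPKM after withdrawal and at 48.1 FPKM at 40 days. Its order over the 5 libraries had both labelled libraries above both normal ones and the highest value at 40 days, as for Grb10. Impact, Copg2, Dlk1, Pon2 and Mkrn3 also had this order, so it is not particular to Slc38a4 and Grb10. Sfmbt2, a paternally expressed Polycomb-related gene, was lower in labelled cells, with 12.1 and 2.76 FPKM in LIF and 13.7 and 0.418 FPKM after withdrawal. At 40 days it stood at 8.13 FPKM. Slc38a4 and Sfmbt2 were the only 2 of the 16 at least 2-fold different in the same direction in both cultures. Atp10a stood at 3.01 FPKM at 40 days against 0.238 FPKM in LIF, and Cobl at 4.40 against 14.2 FPKM. Gab1 was listed at 0 in 3 libraries and at 49.97 and 56.8 FPKM in the others, so no direction is read from it.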

How the data were processed

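Messenger RNA of 5 libraries was measured by sequencing, and the authors deposited 1 table of FPKM per RefSeq transcript, made with TopHat2 2.0.7 and Cufflinks 2.0.2 on mm9, per the submitters' processing notes. The handling of multi-mapped fragments, not given in the sources used here, may affect genes with near-identical copies such as Mcts2 and Zrsr1. The FPKM of a gene is the sum of its transcripts, and log2(FPKM + 1) was computed from the deposited FPKM, which understates the change of low genes. Of 28698 transcripts, 28066 were paired with a symbol by accession in a RefSeq table, and 337 genes with a hyphen were left out. A gene was kept if its FPKM averaged at least 1. This left 9590 genes, 749 of them with a 0 somewhere.

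Limma 3.58.1 (R 4.3.3; lmFit, eBayes with trend) was fitted to 4 libraries with cell type and culture as terms, 1 residual and 1.46 prior degrees of freedom, and Benjamini-Hochberg adjustment over all genes. The script was tested on simulated data. Sample groups came from the labels. Coordinates are those of the GENCODE annotation of mm9, and Kcnq1ot1 was not found there.

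The members and the lists (imprint maintenance, further imprinted genes, host or paralog genes, and markers of pluripotent, fibroblast, endoderm, trophoblast, mesoderm and neural cells) were chosen with earlier results of these data known. Every member with at least 1 FPKM in a library is named with its values, and other genes are named only from those lists, except Fignl1, named as an expressed neighbour of Grb10 after its values were seen. Of the 8 trophoblast, 6 mesoderm and 6 neural markers, 3, 1 and 4 passed the limit. Of 10 fibroblast markers 4 passed, with Lgals1 at least 2-fold lower in the labelled library in both cultures. Of 17 host or paralog genes 13 passed, with Usp37 at least 2-fold higher in the labelled library in both cultures and listed at 0 in both normal ones. Alternatives were another pseudocount, other filters, other scalings and the most abundant transcript alone.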

Additional observations from a re-analysis of the deposited data

Results flagged for a closer look

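Rian and Tspan32 stood on opposite sides between the cell types in the 2 cultures. The log2 ratio of FPKM + 1 of the Hk2/Pkm2-labelled over the normal library was -0.37 with LIF and 1.72 after withdrawal for Rian, and 0.13 and -1.002 for Tspan32. With 1 library per group the difference between cultures was not tested for either gene. Tspan32 stood between 0.839 and 2.68 FPKM in these 4 libraries, so its ratios rest on low values.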

How the results depend on the processing

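The counts of imprinted genes at least 2-fold different were recomputed with another pseudocount, without the filter on low values or with a higher one, without genes listed at 0, under median ratio scaling and quantile normalization, and with the most abundant transcript alone. Between the cell types after withdrawal the count of 5 became 3 among the 17 genes with a mean of at least 5 FPKM and 2 with the most abundant transcript alone. For withdrawal in normal cells the count of 3 became 5 with a pseudocount of 0.1. For withdrawal in labelled cells the count of 2 became 4 with that pseudocount and 1 (Cdkn1c) among genes above 0 in every library. At 40 days against LIF the count of 8 became 13 (7 higher, 6 lower) under quantile normalization. The other counts stayed within 1.5 times, the cause of these shifts was not tested, and limma passed none of the genes in any setting tried. Of 990 ratios of single genes recomputed, 959 kept their side of 2-fold, 11 fell short of it, 20 newly reached it and 0 changed sign among those at least 2-fold. Slc22a18 at 40 days was -0.80 with the most abundant transcript alone, and Tspan32 after withdrawal was -0.98 and -0.99 under the 2 scalings. No paired analysis was possible because each group has 1 library. With no replicates, no library could be left out of a comparison of 2 libraries. The depth limits what can be said of genes near 0.04 FPKM, such as Plagl1 in normal cells.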
